A study of Mus musculus with 2 samples.

Results

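The genes described here are 10 markers of liver endothelial cells, the cells that line the blood vessels and sinusoids of the liver: Pecam1, Kdr, Flt1, Stab1, Stab2, Lyve1, Clec4g, Vwf, Cdh5 and Tek. They were chosen by symbol from the 45777 gene symbols of the deposited table, and the estimated counts of the 37 transcripts listed under the 10 symbols were summed per gene. All 10 were among the 15857 genes that reached 10 counts in one or both libraries, the filter used throughout. The study delivered the long noncoding RNA Wee1-AS to the livers of C57BL/6 mice on a high-fat diet (HFD), a model of metabolic dysfunction-associated steatotic liver disease, and asked how it acts on the cell cycle and on metabolism. Liver poly-A RNA was sequenced at a single time point.

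Both groups were C57BL/6 mice, C57BL/6 N in the study's methods, fed the HFD for 18 weeks. One group received AAV-GFP, a vector for green fluorescent protein that served as the control, and the other AAV-Wee1-AS, a vector for Wee1-AS, both injected retro-orbitally at week 13 of the diet. The vector named AAV-Wee1-AS in the methods was of serotype AAV9 with a CMV promoter, which is active in many cell types, so that delivery was not restricted to hepatocytes or to endothelial cells. The mice were 7 weeks old when the diet began, and their sex is not given in the sources used here. One library per group was analysed, while the series' own text speaks of 4 liver samples, and whether RNA of several mice was pooled is not stated. The spread between mice is therefore unknown, no difference below has a replicate check and no p-value is given. An interval below is an exact 95% interval that covers counting error between these 2 libraries only. Wee1-AS itself was not analysed here.

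The libraries held 55466182 (AAV-GFP) and 48079335 (AAV-Wee1-AS) estimated counts, so the AAV-GFP library was the deeper one. Log2 ratios, here always those of AAV-Wee1-AS over AAV-GFP, used counts scaled by TMM, with a prior count of 2 added, and they followed the base composition of transcripts over the whole table, with a Spearman coefficient of -0.67 with GC content over 14995 genes of these same 2 libraries. The 10 hepatocyte markers listed for comparison were all detected, and their summed level was 84227 TPM (a unit corrected for transcript length and library size) with AAV-GFP and 93682 TPM with AAV-Wee1-AS, and albumin was the most abundant of them.

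Endothelial cells of the liver are of several kinds. Those of the sinusoids have open pores and no continuous basement membrane, and they clear waste from the blood through scavenger receptors, among them the stabilins STAB1 and STAB2, the hyaluronan receptor LYVE1 and the lectin CLEC4G. Endothelial cells in general are joined by VE-cadherin (CDH5) and PECAM1, and they depend on receptor tyrosine kinases: the receptors FLT1 and KDR for vascular endothelial growth factors (VEGFs), and TEK, also called TIE2, for angiopoietins. VWF, the carrier of clotting factor VIII, is typical of the larger vessels and is also made by megakaryocytes. In RNA from whole liver, fewer endothelial cells and less RNA of a gene per endothelial cell cannot be told apart.

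The genes lie on mm10 as follows, from the loci of the table and with the NCBI gene number in parentheses. Kdr (16542) lies at chr5:75932827-75979072, Flt1 (14254) at chr5:147561604-147726438 and Tek (21687) at chr4:94739086-94874976. Stab1 (192187) lies at chr14:31139017-31168651, Stab2 (192188) at chr10:86841194-87008038, Clec4g (75863) at chr8:3707066-3720695 and Lyve1 (114332) at chr7:110850607-110862953. Cdh5 (12562) lies at chr8:104101613-104144504, Pecam1 (18613) at chr11:106654213-106715281 and Vwf (22371) at chr6:125552935-125686679. These 10 genes stand at 10 separate places, and in the GENCODE annotation 6 of them overlap no other gene. Stab1, Stab2, Clec4g and Cdh5 each overlap at least 1 gene on the opposite strand. The neighbour of Stab1 that shares its end, Nt5dc2, had 716 counts with AAV-GFP and 238 with AAV-Wee1-AS. Gm16553 at Clec4g and Gm29682 at Cdh5 had 0 counts in both. The library kit keeps the strand, but the strand setting of the counting is not given in the sources used here.

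A promoter sequence was at hand for 6 of the 10 genes (Kdr, Flt1, Tek, Stab1, Stab2 and Clec4g), and none for Pecam1, Lyve1, Vwf and Cdh5. The windows of the 3 tyrosine kinase receptors, which were all higher with AAV-Wee1-AS, are shown with those of Stab1 and Clec4g, sinusoidal genes that were lower. Each is the 250 bases before the annotated start, from RefSeq (GRCm38.p6, the build also called mm10), written 5′ to 3′ on the strand of the gene. The curated transcripts begin just after the window. Capitals mark matches on either strand to short motifs, and overlapping matches run together. The TATA box was searched as TATAAA. For the GC box, the letters were CCGCCC. The core of a site for ETS factors, which act in endothelial genes, was searched as AGGAAG. A site for GATA factors was taken to be AGATAA.
Kdr, chr5:75978456-75978705, minus strand: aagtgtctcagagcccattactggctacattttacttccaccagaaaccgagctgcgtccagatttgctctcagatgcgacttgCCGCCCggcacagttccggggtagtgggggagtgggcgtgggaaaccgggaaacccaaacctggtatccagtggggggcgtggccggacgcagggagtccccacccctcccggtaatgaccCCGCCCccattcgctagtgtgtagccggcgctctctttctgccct
Flt1, chr5:147726012-147726261, minus strand: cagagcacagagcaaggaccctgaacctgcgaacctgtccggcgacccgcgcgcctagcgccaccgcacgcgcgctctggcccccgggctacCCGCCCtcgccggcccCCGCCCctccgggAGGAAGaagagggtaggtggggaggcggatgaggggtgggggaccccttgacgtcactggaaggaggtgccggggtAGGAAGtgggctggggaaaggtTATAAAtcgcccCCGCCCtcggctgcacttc
Tek, chr4:94739039-94739288, plus strand: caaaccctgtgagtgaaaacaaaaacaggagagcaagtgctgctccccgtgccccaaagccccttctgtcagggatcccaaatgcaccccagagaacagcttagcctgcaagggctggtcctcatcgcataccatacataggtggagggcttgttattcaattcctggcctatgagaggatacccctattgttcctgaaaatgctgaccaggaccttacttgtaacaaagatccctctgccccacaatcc
Stab1, chr14:31168642-31168891, minus strand: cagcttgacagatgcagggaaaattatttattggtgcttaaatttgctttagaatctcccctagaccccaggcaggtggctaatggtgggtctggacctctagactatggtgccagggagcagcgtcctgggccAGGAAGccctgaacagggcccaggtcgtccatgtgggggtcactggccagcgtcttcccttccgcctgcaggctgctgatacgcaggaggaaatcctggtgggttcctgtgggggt
Clec4g, chr8:3720652-3720901, minus strand: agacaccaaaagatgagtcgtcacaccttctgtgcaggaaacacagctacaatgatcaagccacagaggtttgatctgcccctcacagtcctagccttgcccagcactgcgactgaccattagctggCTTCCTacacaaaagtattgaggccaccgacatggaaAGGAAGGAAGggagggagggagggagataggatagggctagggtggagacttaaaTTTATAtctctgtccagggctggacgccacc

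The 3 receptor promoters had little in common by these letters. The Flt1 window held 1 TATA box with 25 bases between it and the start, 3 GC boxes and 2 ETS cores. The Kdr window held 2 GC boxes only, and the Tek window held none of the 4 motifs. Their GC content differed as well, with 70.4% for Flt1, 61.6% for Kdr and 51.2% for Tek, against a median of 52.4% over all promoter windows of the same length. The sinusoidal windows had no GC box. Clec4g had a TATA box, also 25 bases from the start, and 3 ETS cores, of which 2 overlap, and Stab1 had 1 ETS core, as did Stab2. Of all 32851 promoter windows of 250 bases, 12.4% held a TATA box, 32.7% a GC box, 29.5% an ETS core and 9.99% a GATA site, beside 2, 2, 4 and 0 of the 6 windows of these genes. A match of letters is a description and not a bound site, and no binding was measured.

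The level of each gene was first compared within a library, on the TPM scale. Clec4g was the most abundant of the 10 genes in both libraries, at 78.8 TPM (76.1 to 81.5) with AAV-GFP and 54.7 TPM (52.3 to 57.2) with AAV-Wee1-AS. In the AAV-GFP library it was followed by Stab1, Cdh5, Stab2, Pecam1, Kdr, Lyve1, Vwf, Tek and Flt1. Of the neighbours in this order, Stab1 at 19.4 TPM and Cdh5 at 19.1 TPM had overlapping counting intervals, and the intervals of the other neighbours did not overlap. In the AAV-Wee1-AS library the order after Clec4g was Kdr, Cdh5, Stab2, Pecam1, Stab1, Lyve1, Tek, Flt1 and Vwf. There the intervals of Kdr and Cdh5, of Cdh5 and Stab2, and of Stab2 and Pecam1 overlapped. Kdr thus stood at place 6 in one library and at place 2 in the other, Stab1 at places 2 and 6, and Vwf at places 8 and 10. The summed level of the 10 genes was 174 TPM with AAV-GFP and 141 TPM with AAV-Wee1-AS.

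**Figure D1:**
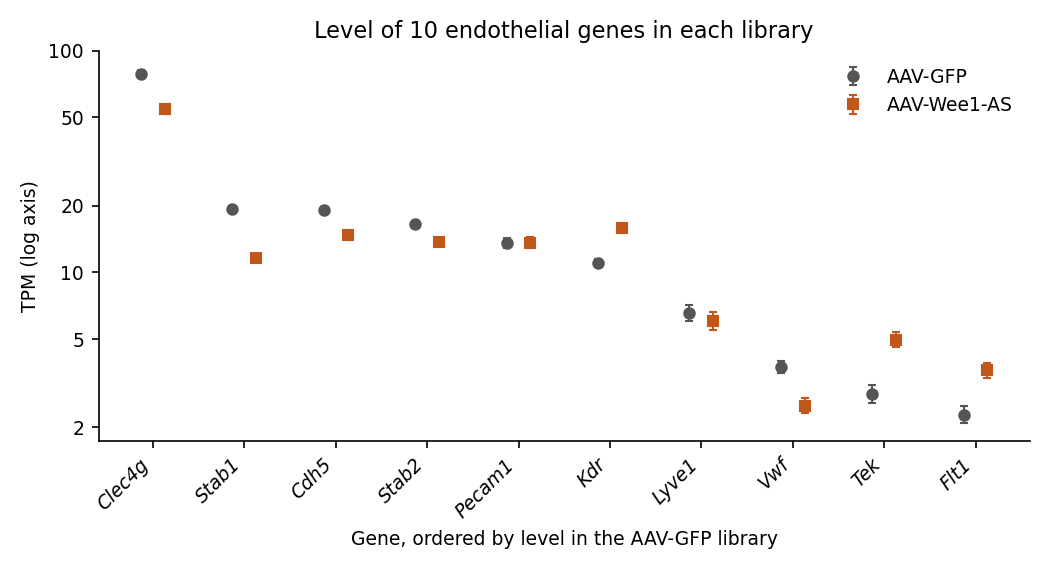
Level of each endothelial gene in TPM (log axis) in the AAV-GFP library (grey circles) and the AAV-Wee1-AS library (orange squares), with bars for the exact 95% Poisson interval of the counts, hidden where smaller than the symbol. Kdr, Tek and Flt1 sit higher with AAV-Wee1-AS, Clec4g, Stab1, Cdh5, Stab2 and Vwf sit lower, and the bars of Pecam1 and Lyve1 overlap.

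The tyrosine kinase receptors were the 3 genes whose interval lay wholly above 0, that is, with more RNA in the AAV-Wee1-AS library. Kdr, which encodes the main signaling receptor for VEGF-A, had 2159 counts (11.1 TPM) with AAV-GFP and 2628 counts (15.9 TPM) with AAV-Wee1-AS. Its log2 ratio was 0.55 (0.46 to 0.63), a ratio of 1.46. Flt1, which encodes a VEGF receptor that binds VEGF-A tightly and limits its action on KDR, had 514 counts (2.29 TPM) and 684 counts (3.62 TPM), a log2 ratio of 0.67 (0.51 to 0.84). The angiopoietin receptor gene Tek had 439 counts (2.83 TPM) and 654 counts (4.98 TPM), and its log2 ratio of 0.84 (0.66 to 1.02) was the highest of the 10. All 3 receptors were thus higher with AAV-Wee1-AS by more than the counting error, and none was past 2-fold. Kdr and Flt1 differed in the same direction, and the TPM of Kdr was several times that of Flt1 in both libraries, with a ratio of 4.84 with AAV-GFP and 4.40 with AAV-Wee1-AS.

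The scavenger receptors and the lectin of the sinusoids were lower with AAV-Wee1-AS, apart from Lyve1. Stab1 differed most of the 10 genes on the lower side, with 5104 counts (19.4 TPM) and 2591 counts (11.6 TPM), a log2 ratio of -0.71 (-0.78 to -0.65). Clec4g, which is nearly restricted to sinusoidal cells in the liver, had 3222 and 1903 counts, a log2 ratio of -0.50 (-0.58 to -0.41). Stab2, the second stabilin and the main hyaluronan scavenger of the sinusoids, had 4488 counts (16.6 TPM) and 3103 counts (13.7 TPM), and its log2 ratio of -0.27 (-0.34 to -0.20) was nearer to 0, but this direction holds for the sum of all its transcripts and turned to 3.69 from curated transcripts alone. The TPM of Stab1 was 1.17 times that of Stab2 with AAV-GFP and 0.851 times with AAV-Wee1-AS, so the order of the stabilins differed between the libraries for sums over all transcripts. From curated transcripts alone, Stab1 was above Stab2 in both, at 19.4 against 0.484 TPM and at 11.1 against 6.26 TPM. Lyve1 had 563 counts (6.55 TPM) and 440 counts (6.04 TPM), and the interval of its log2 ratio (-0.09, -0.28 to 0.09) held 0.

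Of the genes of cell junctions and of clotting, Cdh5 and Vwf were lower with AAV-Wee1-AS and Pecam1 was near 0. Cdh5, which encodes the adhesion molecule of endothelial junctions, had 2505 counts (19.1 TPM) and 1646 counts (14.8 TPM), a log2 ratio of -0.34 (-0.43 to -0.25). Vwf had 1093 counts (3.75 TPM) and 620 counts (2.51 TPM), a log2 ratio of -0.55 (-0.70 to -0.41). Pecam1, an adhesion molecule that platelets and leukocytes also carry, had 1473 counts (13.5 TPM) and 1258 counts (13.6 TPM), and its log2 ratio of 0.04 (-0.07 to 0.15) was the nearest to 0 of the 10. Set against Pecam1 within each library, which needs no scaling between them, the TPM of Kdr was 0.819 times that of Pecam1 with AAV-GFP and 1.17 times with AAV-Wee1-AS, and that of Tek 0.209 and 0.365 times. The TPM of Stab1 was 1.43 and 0.853 times that of Pecam1, and that of Clec4g 5.82 and 4.01 times. As measured, the genes therefore differed unequally between the libraries and not by a common factor. These TPM ratios still hold any trend with GC content or length. With those trends removed, as described below, the log2 ratio was 0.07 for Pecam1, 0.14 for Kdr and 0.26 for Tek. It was then -0.17 for Clec4g and -0.67 for Stab1.

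Counted over the 10 genes, the interval lay wholly above 0 for 3 genes, wholly below 0 for 5 and on both sides of it for 2. Over all 15857 genes past the filter, the interval lay wholly above 0 for 39.1% and wholly below it for 38.0%, so that intervals away from 0 were common in the table. None of the 10 genes was above 2-fold, where 22.2% of all genes were, and none was below 0.5-fold, where 8.71% of all genes were. The median log2 ratio of the 10 genes was -0.18, beside -0.02 over all genes, whose interquartile range ran from -0.56 to 0.87. The median of all genes fell by 0.20 when the libraries were scaled by the upper quartile, and then the log2 ratio of Pecam1 was -0.17. Of the genes past either fold limit, 71.9% were on the higher side with TMM scaling, 56.8% with the upper quartile and 46.5% with the trends with GC content and length removed.

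**Figure D2:**
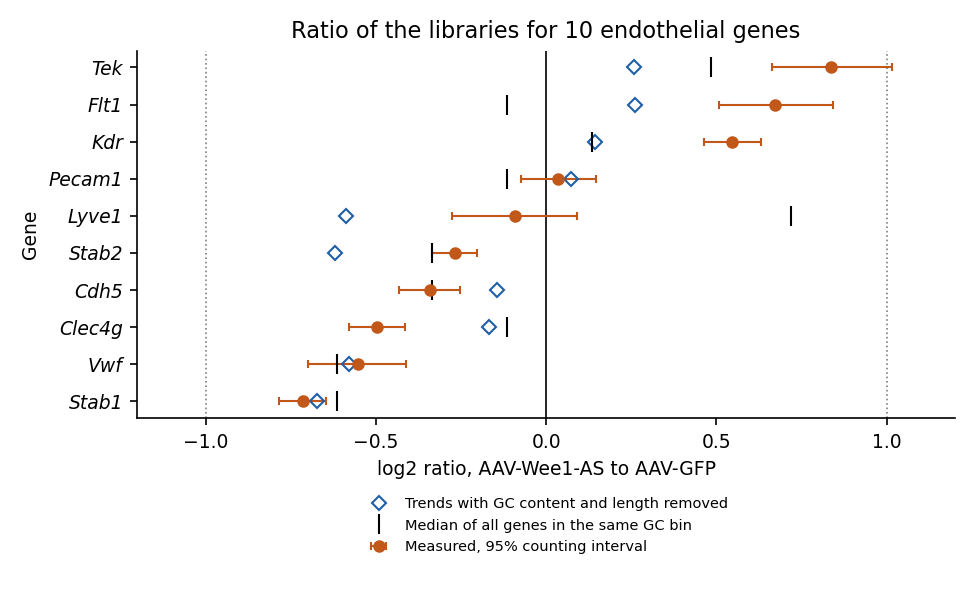
Log2 ratio (AAV-Wee1-AS over AAV-GFP) of each endothelial gene (orange circles, bars for the exact 95% counting interval), the value after removal of the trends with GC content and length (open diamonds) and the median of all genes in the same GC bin (vertical ticks). Dotted lines mark 2-fold and 0.5-fold, and all 10 genes lie between them, from -0.71 (Stab1) to 0.84 (Tek) as measured and from -0.67 (Stab1) to 0.26 (Flt1 and Tek) with the trends removed.

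The ratios of the 10 genes were then set beside the GC content of their transcripts, which moved with the ratio over the whole table. GC content ran from 45.8% for Lyve1 and 47.1% for Tek to 56.5% for Vwf and 57.3% for Stab1. Across the 10 genes, which share the same 2 libraries, the Spearman coefficient of the log2 ratio with GC content was -0.81, and with transcript length it was -0.20. Over all genes with a GC value, the coefficient with length was 0.345, of the other sign. When all genes were ranked by GC content and cut into 10 bins of like size, 6 of the 10 genes lay above the median of their own bin and 4 below it. Vwf, at -0.55, and Stab1, at -0.71, were near the median of -0.61 of their bin, and Cdh5, at -0.34, and Stab2, at -0.27, were near the -0.33 of theirs. Flt1, at 0.67, was well above the -0.12 of its bin, while Clec4g in the same bin, at -0.50, was below it. Lyve1 lay far below its bin, since genes of its GC content had a median of 0.72. Its difference from the bin median was -0.81, beside 0.79 for Flt1, too close to rank given the counting error.

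With the trends with GC content and length removed by lowess, the receptors kept the higher values but came closer to 0. The log2 ratio was then 0.14 for Kdr, 0.26 for Flt1, 0.26 for Tek and 0.07 for Pecam1. It was -0.67 for Stab1, -0.62 for Stab2, -0.59 for Lyve1 and -0.58 for Vwf, and -0.17 for Clec4g and -0.14 for Cdh5. The 3 hyaluronan and scavenger receptor genes Stab1, Stab2 and Lyve1 thus stood with Vwf at the lower end of the list, although Lyve1 and Stab2 had been nearer to 0 as measured. Stab1, Stab2 and Vwf also had the longest transcripts of the 10, with 7999, 8228 and 8834 bases. As measured, they lay near the medians of their GC bins. Lyve1, with 2893 bases, lay below its own. How much of these values comes from removal of the length trend was not tested. The place of Stab2 again holds for the sum of all its transcripts only. The median of the 10 genes was -0.16, beside 0.0007 over all genes, whose interquartile range ran from -0.41 to 0.40. None of the 10 was past 2-fold or 0.5-fold, beside 7.42% and 8.52% of the 14995 genes with a GC value. The coefficient with GC content over the 10 genes was still -0.50 after the removal. The part that the trend plays in each gene was not tested beyond this.

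**Figure D3:**
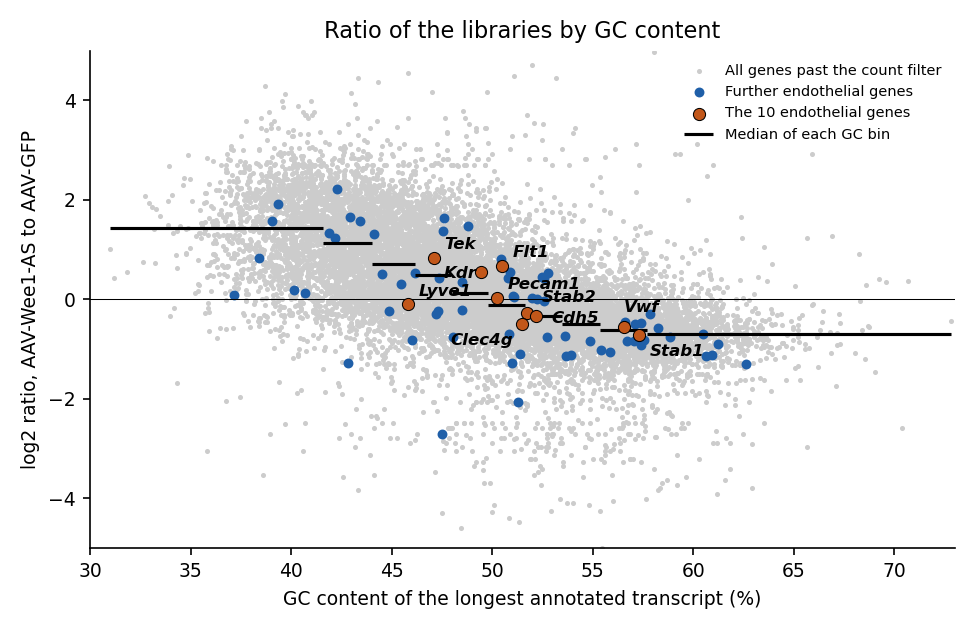
Log2 ratio (AAV-Wee1-AS over AAV-GFP) against the GC content of the longest annotated transcript, for all genes past the count filter (grey, 9 of 14995 lie beyond the vertical axis), the further endothelial genes (blue) and the 10 endothelial genes (orange), with the median of each GC bin (black lines). Tek, Kdr and Flt1 lie above the lines of their bins and Lyve1 lies far below its own.

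Of the 37 transcripts of these genes, 31 had a count in at least 1 library, and for several genes a single transcript held nearly all counts. One curated RefSeq transcript (accessions that begin with NM) held 99.8% of the counts of Kdr with AAV-GFP and 99.96% with AAV-Wee1-AS, and 98.6% and 97.8% of those of Clec4g. For Stab1 it held 99.9% (99.8 to 99.97) and 95.9% (95.1 to 96.6), and the predicted noncoding transcript of Stab1 had 5 and 106 counts, so the shares did not overlap. Pecam1 was split over 3 curated transcripts, and the split was alike in both libraries, with 44.5% and 44.2% on variant 3. Tek was split over variants 2 and 1, with 57.2% (52.4 to 61.9) and 54.4% (50.5 to 58.3) on variant 2, so both variants were higher with AAV-Wee1-AS. The estimates share out reads between transcripts that overlap, and intervals of a share cover counting error only.

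The split differed most for Stab2. Predicted transcript variant X6, listed as a noncoding RNA, held 3928 of its counts with AAV-GFP, 87.5% (86.5 to 88.5), and 477 with AAV-Wee1-AS, 15.4% (14.1 to 16.7). The curated mRNA held 130 counts, 2.90% (2.43 to 3.43), and 1421 counts, 45.8% (44.0 to 47.6), and predicted variant X1 held 5 and 1110 counts. The 4 transcripts listed as noncoding together held 89.6% and 52.1% of the counts of the gene. The direction of Stab2 therefore depended on the transcripts summed. Its log2 ratio was 3.69 from curated transcripts alone and -2.77 from its most abundant transcript alone, against -0.27 from all 10. The loci of variant X6, variant X1 and the curated mRNA overlap over nearly their whole length, and whether the split lies in the RNA or in how the reads were shared out was not tested.

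Flt1 had 2 curated transcripts of different kinds. The locus of variant 2 ends 73555 bases short of that of variant 1, inside the gene, and early ends of this kind are known to give soluble FLT1, a secreted form that binds VEGF without signaling. Which protein variant 2 encodes was not checked here. Variant 1 had 459 counts with AAV-GFP and 575 with AAV-Wee1-AS. Variant 2 had 52 and 103 counts, 10.1% and 15.1% of the counts of the gene. The intervals of the share overlapped, with an upper bound of 13.1% for AAV-GFP and a lower bound of 12.5% for AAV-Wee1-AS, and both variants had more counts in the AAV-Wee1-AS library, the less deep one.

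**Figure D4:**
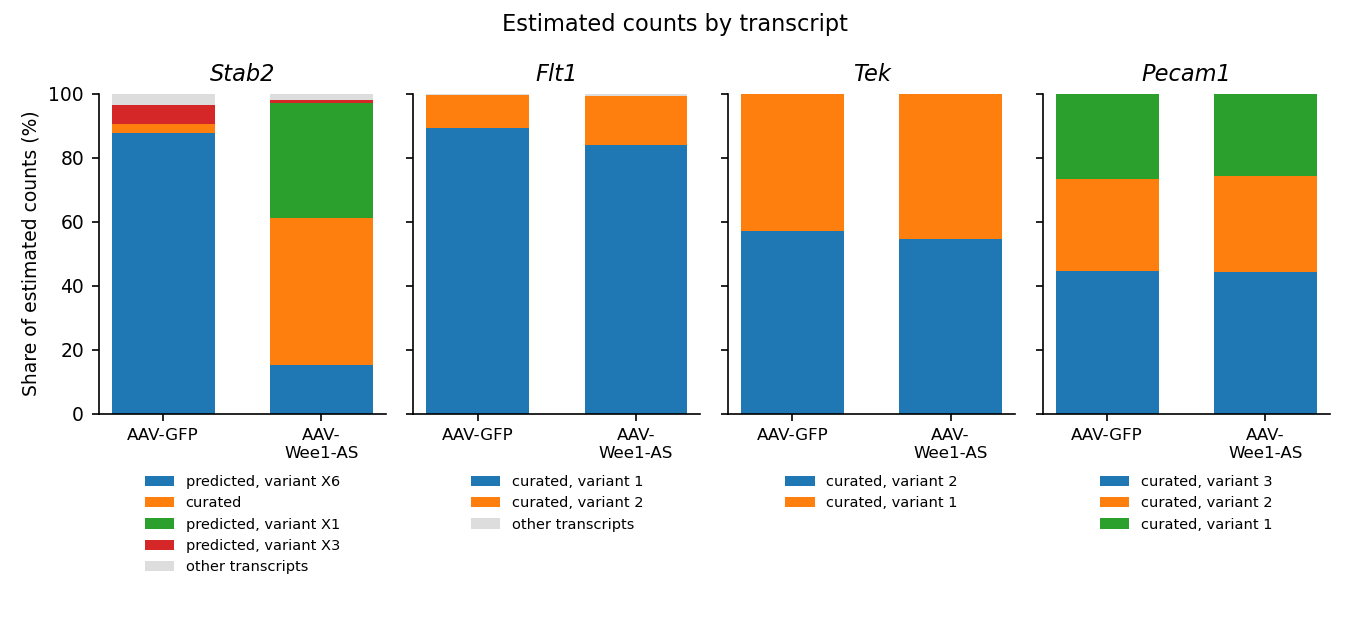
Share of the estimated counts of Stab2, Flt1, Tek and Pecam1 that fell on each transcript (percent, stacked bars, 1 bar per library), with curated and predicted RefSeq transcripts in separate colours and the remaining ones in grey. Variant X6 of Stab2 holds 87.5% of the counts with AAV-GFP and 15.4% with AAV-Wee1-AS, while the bars of Tek and Pecam1 are nearly alike.

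The other genes of the VEGF and angiopoietin system, which signal through the receptors above, were taken from a written list. Of 13 genes, 11 were past the filter, 3 of them above 2-fold (22.2% of all genes) and 1 below 0.5-fold (8.71% of all genes), with a median log2 ratio of -0.24. With the trends removed, 0 were above 2-fold and 1, Vegfd, was below 0.5-fold, beside 7.42% and 8.52% of all genes, with a median of -0.31. The median was -0.44 with upper quartile scaling. It was -0.05 with FPKM, -0.09 with TPM and -0.09 with a filter of at least 50 counts in 1 library. Among the ligands, Vegfa, the VEGF made by hepatocytes and other cells, had 1823 counts (15.9 TPM) and 2214 counts (23.3 TPM), a log2 ratio of 0.54 (0.45 to 0.63) and of 0.65 with the trends removed. Vegfb, a ligand of FLT1, was the lowest of the list, with 1202 and 405 counts and a log2 ratio of -1.30 (-1.47 to -1.14), but its GC content was 62.6% and its value with the trends removed was -0.48. Vegfa and Vegfb thus differed in opposite directions. Vegfc, which acts through FLT4, had 153 and 108 counts, a log2 ratio of -0.24 (-0.61 to 0.13), and Vegfd had 25 and 11 counts, -0.82 (-2.09 to 0.15). Both intervals held 0.

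The angiopoietin ligands were near the limit of detection. Angpt1, which activates TEK, had 6 counts with AAV-GFP and 24 with AAV-Wee1-AS, a log2 ratio of 1.92 (0.94 to 3.84). Removal of the trends put Angpt1 at 0.53, within 2-fold. Angpt2, which can act against it, had 48 and 32 counts, -0.31 (-1.01 to 0.35). Pgf and Angpt4 were under the filter, with 0 and 4 counts and with 8 and 0 counts.

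The co-receptors and partners of the receptors differed among themselves. Nrp1, the neuropilin that helps VEGF-A bind KDR, had 1733 counts (8.89 TPM) and 3663 counts (22.1 TPM), a log2 ratio of 1.34 (1.26 to 1.43). Ptprb, the endothelial phosphatase that acts on TEK and on VE-cadherin, had 1228 counts (3.02 TPM) and 3195 counts (9.48 TPM), a log2 ratio of 1.64 (1.55 to 1.74), the highest of the list among genes that reached 100 counts. With the trends removed these values were 0.18 and 0.56, so both were then within 2-fold. Nrp2, the second neuropilin, had a log2 ratio of 0.05 (-0.08 to 0.17). The remaining receptors were lower, with 2829 and 1576 counts for Flt4, the receptor of VEGF-C, a log2 ratio of -0.58 (-0.67 to -0.49), and with 1710 and 807 counts for Tie1, the partner of TEK, -0.82 (-0.94 to -0.70). Of the 5 receptor tyrosine kinase genes of the VEGF and TIE families, Kdr, Flt1 and Tek, with GC contents from 47.1% to 50.5%, were higher, and Flt4 and Tie1, with 56.5% and 57.6%, were lower. With the trends removed, Flt4 was at -0.38 and Tie1 at -0.31, against 0.14 to 0.26 for the other 3.

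The further list of sinusoidal genes held 18 genes, and all 18 were past the filter. Of these, 4 were above 2-fold and 0 below 0.5-fold, beside 22.2% and 8.71% of all genes, so the share above 2-fold was that of the whole table. With the trends removed, 1 was above 2-fold and 1, Clec1b (-1.35, named after its value was seen), below 0.5-fold, beside 7.42% and 8.52% of all genes. The median log2 ratio was 0.19, but -0.08 with the trends removed and -0.01 with upper quartile scaling. F8, the clotting factor VIII gene, was the highest, with 314 and 786 counts and a log2 ratio of 1.58 (1.40 to 1.78). Its GC content was 39.0%, and with the trends removed its value was -0.37. Gpr182, a receptor gene of the sinusoids, was the lowest, with 2348 counts (42.1 TPM) and 1157 counts (24.5 TPM) and a log2 ratio of -0.76 (-0.86 to -0.66), and it was at -0.50 with the trends removed. The other 3 above 2-fold, named after their values were seen, were the mannose receptor Mrc1 (785 and 1948 counts, log2 ratio 1.57), the Wnt agonist Rspo3 (110 and 232 counts, 1.32) and the lectin Cd209b (7 and 18 counts, 1.37). Removal of the trends put Mrc1 at 0.37 and Rspo3 at 0.56, both within 2-fold, and Cd209b at 1.17. The genes of this list were thus found on both sides of 0.

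Of the general endothelial genes outside the 10, 12 of 19 were lower with AAV-Wee1-AS, beside a median log2 ratio of -0.02 over all genes. Values below 0 were thus common in the whole table. All 19 of this list were past the filter, 2 above 2-fold and 3 below 0.5-fold, beside 22.2% and 8.71% of all genes, with a median log2 ratio of -0.69. Their median GC content was 53.7%, and the median was -0.24 with the trends removed. Cyyr1 was the highest, with 57 and 154 counts and a log2 ratio of 1.66 (1.25 to 2.16), and Esam, an adhesion molecule of endothelial junctions like VE-cadherin, was the lowest, with 979 and 369 counts and a log2 ratio of -1.14 (-1.32 to -0.97). Named after their values were seen, the others past the limits were Adgrl4 (log2 ratio 1.23) above 2-fold, and the transcription factor Sox18 (-1.12) and the adhesion molecule Icam2 (-1.12) below 0.5-fold. All 5 came within 2-fold once the trends were removed, with Cyyr1 at 0.37, Adgrl4 at 0.04, Esam at -0.58, Sox18 at -0.29 and Icam2 at -0.55. The 2 genes then below 0.5-fold were others, Emcn (-1.12) and Cd93 (-1.05), also named after their values were seen, beside 8.52% of all genes.

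Markers of continuous and activated endothelium, among them adhesion molecules that capture leukocytes, had the lowest median of the endothelial lists on the scaled counts. Of the 12 genes, all past the filter, 7 were below 0.5-fold and 1 above 2-fold, beside 8.71% and 22.2% of all genes, with a median log2 ratio of -1.06, and it was the same with Sele and Ackr1 set at the floor of 3 counts. The median was -0.92 with the trends removed, but -0.38 with FPKM and -0.55 with TPM (pseudocount 1), where the general endothelial list, at -0.60 and -0.64, was lower. Cd34, a surface marker of continuous capillaries, was the lowest that reached 100 counts, at 179 and 60 counts, a log2 ratio of -1.29 (-1.76 to -0.88), while the median of all genes in its GC bin was 1.13, and its value with the trends removed by lowess was -2.24. Vcam1, an adhesion molecule induced in inflammation, was the highest that reached 100 counts, with 1205 and 1144 counts and a log2 ratio of 0.19 (0.07 to 0.31), though with the trends removed it was at -1.17. The others below 0.5-fold were Plvap, Selp, Icam1, Thbd, Sele and Ackr1, and the only gene above 2-fold was Mmrn1, with 6 and 30 counts (all named after their values were seen). Once the trends were removed, Plvap (-0.32), Icam1 (-0.40), Thbd (-0.97) and Mmrn1 (0.99) were within 2-fold, and 5 genes, Cd34, Selp, Sele, Ackr1 and Vcam1, were below 0.5-fold, beside 8.52% of all genes. Ackr1 rests on 12 and 1 counts, a log2 ratio of -2.07 (-8.74 to -0.56). Sele had 12 counts with AAV-GFP and 0 with AAV-Wee1-AS, at least 3.33-fold lower when the library at 0 is set at a floor of 3 counts.

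Genes of endothelial Notch signaling and of arteries gave 8 of 10 past the filter, with 1 above 2-fold and 1 below 0.5-fold, beside 22.2% and 8.71% of all genes. Their median log2 ratio was -0.26, and its sign was not stable, since it was 0.22 with the trends removed, 0.02 from curated transcripts and 1.10 from the most abundant transcript of each gene. Jag1 and Dll4, ligands of NOTCH receptors, stood at its ends. Jag1 had 95 and 224 counts, a log2 ratio of 1.48 (1.15 to 1.86), and Dll4 had 430 and 171 counts, a log2 ratio of -1.06 (-1.33 to -0.81). They were at 1.01 and -0.55 with the trends removed.

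**Figure D5:**
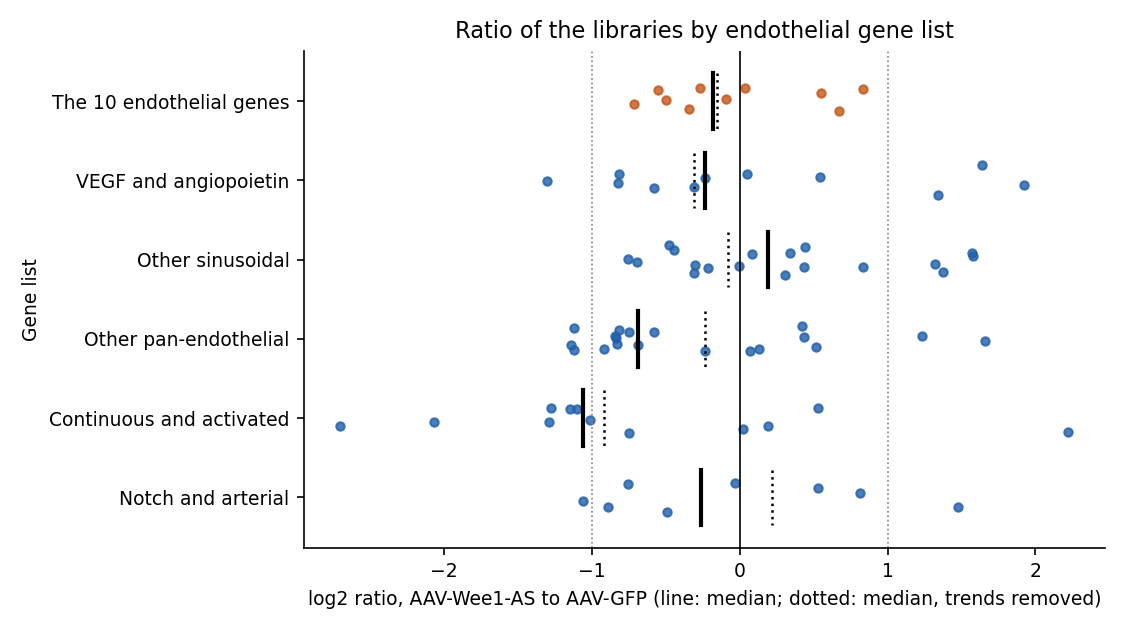
Log2 ratio (AAV-Wee1-AS over AAV-GFP) of each gene past the count filter (points, spread vertically for view) in the 10 endothelial genes (orange) and 5 further endothelial lists (blue), with the median (solid line) and the median after removal of the trends with GC content and length (dotted line). Grey dotted lines mark 2-fold and 0.5-fold, and the median of the continuous and activated list, at -1.06, is the lowest.

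The 5 further lists together held 71 genes besides the 10, of which 67 were past the filter. Of these, 11 were above 2-fold, where 22.2% of all genes were, and 12 below 0.5-fold, where 8.71% of all genes were, with a median log2 ratio of -0.24. The GC content of the 11 ran from 39.0% to 48.8% and that of the 12 from 42.8% to 62.6%, and over the 67 genes the Spearman coefficient of the log2 ratio with GC content was -0.63. With the trends removed, 2 were above 2-fold and 9 below 0.5-fold, beside 7.42% and 8.52% of all genes, with a median of -0.29.

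Several of the 10 genes are also used by other cells of the liver, and markers of those cells moved in the same libraries. Stab1 and Lyve1 are found in macrophages as well, and the 10 Kupffer cell markers had a summed level of 885 TPM with AAV-GFP and 558 TPM with AAV-Wee1-AS, with a median log2 ratio of -0.27, 3 above 2-fold and 2 below 0.5-fold, beside 22.2% and 8.71% of all genes. The median was -0.11 with the trends removed, with 1 above 2-fold and 0 below 0.5-fold, beside 7.42% and 8.52% of all genes. None of these 10 was at 0. Platelets and megakaryocytes, which carry Vwf and Pecam1, gave 6 of 7 markers past the filter, with a median of -0.76 (-0.35 with the trends removed) and a summed level of 6.22 and 3.23 TPM. The counting intervals of Itga2b, Pf4 and Treml1 lay wholly below 0, as did those of 38.0% of all genes. Those of Ppbp, Gp9 and Gp5 held 0, and Treml1 was at 0 with AAV-Wee1-AS (these markers were named after their values were seen). The 6 leukocyte markers had a median of -0.49 (-0.48 with the trends removed) and a summed level of 122 and 99.0 TPM. The markers of stellate cells, which lie next to the sinusoids, had a median of -0.73 (-0.45 with the trends removed), at 210 and 168 TPM. Of these 10 markers, 2 were above 2-fold and 4 below 0.5-fold, beside 22.2% and 8.71% of all genes. With the trends removed, 0 were above 2-fold and 2 below 0.5-fold, beside 7.42% and 8.52% of all genes. The median log2 ratio of the 10 hepatocyte markers was -0.04 (0.14 with the trends removed). The part of these cells in the ratios of Stab1, Lyve1, Vwf and Pecam1 was not tested.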

How the data were processed

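Poly-A RNA of livers of HFD-fed mice was sequenced, and 1 library per group (AAV-GFP and AAV-Wee1-AS) was analysed. The authors deposited 1 table of 129299 RefSeq transcripts on mm10 that holds, per library, an estimated count, FPKM (fragments per kilobase, corrected for depth) and TPM (a like value with equal library sums). Deposited estimated counts are whole numbers that share reads out between overlapping transcripts and are not normalized. The FPKM and TPM values of the authors are corrected for transcript length and library size. The submitters' processing notes name Trimmomatic 0.38, HISAT2 2.1.0, SAMtools 1.9 and StringTie 2.1.3b, and their parameters are not given in the sources used here. No columns of comparisons by the authors and no column outside these 2 libraries were used.

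Estimated counts and TPM of all transcripts with the same symbol were added up. Libraries were scaled by TMM (edgeR 4.0.16, R 4.3.3) on the table of all genes, and log2 ratios (AAV-Wee1-AS over AAV-GFP) were taken with a prior count of 2 over genes that reached 10 counts in one or both libraries. Folds above 2 and below 0.5 were counted. With 1 library per group there is no spread within a group, so no test was run. The exact (Clopper-Pearson) 95% interval of a ratio or share and the exact Poisson interval of a TPM value cover counting error only, and 3 counts served as the floor of a library. At these depths of 48079335 and 55466182 counts, the intervals of the 10 genes had a mean half-width of 0.12 on the log2 scale. GC content and length came from the longest GENCODE vM21 transcript and were matched by symbol for 94.6% of the genes past the filter, and their trends were removed by lowess (span 0.3, 5 cycles). Promoter windows came from RefSeq. Python 3.11.15 was used with numpy 2.4.6, pandas 2.3.3, scipy 1.17.1, statsmodels 0.14.6 and matplotlib 3.10.9, and the steps were tested on simulated counts.

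The 10 genes and all lists were chosen with earlier results of these data known. All 10 genes are named. From each further endothelial list, the genes with the highest and the lowest log2 ratio among those that reached 100 counts in a library are named, and each VEGF and angiopoietin ligand and co-receptor past the filter. Other genes of the lists are marked as named after their values were seen, apart from Flt4 and Tie1, named with the other receptors of their families, Pgf and Angpt4, which were under the filter, and genes that overlap the 10. Alternative scalings were library totals, with and without the 20 most abundant genes, size factors of DESeq2 1.42.0 and the upper quartile. Alternative filters were none, 10 counts in both libraries and 50 counts in either. Further alternatives were a prior count of 0.5, FPKM and TPM with a pseudocount of 1, the most abundant transcript only, curated transcripts only, and removal of the trends.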

Additional observations from a re-analysis of the deposited data

How the results depend on the processing

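The log2 ratios of Kdr, Flt1 and Tek stayed above 0 and those of Stab1, Clec4g, Vwf, Cdh5 and Lyve1 below 0 under all 13 alternatives, with ranges of 0.14 to 0.55 for Kdr, 0.26 to 0.68 for Flt1, 0.26 to 0.84 for Tek and -0.92 to -0.67 for Stab1. Pecam1, whose interval held 0, had the same sign under 9 of 13. Stab2 reversed to 3.69 when curated transcripts alone were summed. The median of the 10 genes ran from -0.39 (upper quartile) to -0.0278 (curated transcripts only) and stayed within the mean half-width of the counting intervals of -0.18 under the other 11. One gene, Stab2, was above 2-fold from curated transcripts and 1 gene, again Stab2, was below 0.5-fold from the most abundant transcript, and no other alternative put a gene past either limit.

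Over all genes, the number above 2-fold (3527) was 1029 with FPKM, 1608 with TPM and 1112 with the trends removed. The number below 0.5-fold (1381) was 2232 with the upper quartile, 2126 with no count filter, 884 with at least 10 counts in both libraries, 825 with at least 50 in 1 library, 307 with FPKM and 438 with TPM. The filters change how many genes are counted, and the FPKM and TPM settings change the unit, the scaling and the pseudocount together. The cause of these shifts was not tested. Of the list medians, that of continuous and activated endothelium was -0.38 with FPKM and that of the Notch and arterial genes 1.10 from the most abundant transcript, the moves that were largest for these lists. With 1 library per group, no library can be left out. No paired analysis was possible because each group has 1 library. For the ligands near the filter, such as Angpt1 and Vegfd, depth limits the ratio.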

Other observations

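Lymphatic endothelial markers were measured in the same libraries, and all 5 were past the filter, with 1 above 2-fold and 2 below 0.5-fold, beside 22.2% and 8.71% of all genes, and a median log2 ratio of -0.58. Prox1, the transcription factor of lymphatic identity that hepatocytes also express, had 1537 counts with AAV-GFP and 4937 with AAV-Wee1-AS, a log2 ratio of 1.95 (1.86 to 2.03) and of 0.72 with the trends with GC content and length removed. The lymphatic genes Pdpn (22 and 6 counts) and Ccl21a (49 and 16 counts) had log2 ratios of -1.37 and -1.26, and of -1.37 and -0.54 with the trends removed, when 0 of the 5 were above 2-fold and 1 below 0.5-fold, beside 7.42% and 8.52% of all genes. Of the genes listed for smooth muscle, Acta2 had 331 and 82 counts, a log2 ratio of -1.73 (-2.12 to -1.40), and Tagln had 780 and 106 counts, -2.60 (-2.92 to -2.32). With the trends removed these were at -1.63 and -2.14. The study took α-SMA, the protein of Acta2, as a profibrogenic marker, so Acta2 is not particular to vessel walls. Which cells these values come from was not tested. Myh11, the myosin of mature smooth muscle, had 98 and 122 counts, a log2 ratio of 0.57 (0.18 to 0.98), and Cnn1 was at 0 in both libraries. The smooth muscle list gave 3 of 4 genes past the filter, with a median of -1.73. The 5 of 6 cholangiocyte markers past the filter were all within 2-fold, with a median of -0.18, beside 22.2% of all genes above 2-fold and 8.71% below 0.5-fold. Their median was 0.09 with the trends removed, and Spp1 (-1.02) was then below 0.5-fold, as were 8.52% of all genes. These genes were named after their values were seen.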
